A study of Mus musculus with 9 samples.

Results

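The circadian clock genes described here are 10 mouse genes, *Arntl*, *Clock*, *Per1*, *Per2*, *Per3*, *Cry1*, *Cry2*, *Nr1d1*, *Nr1d2* and *Dbp*, picked by name and found by their GENCODE M1 identifiers among the 13259 genes listed in both deposited RNA-seq tables. All 10 were in both tables. RNA was taken from AML12, a line of mouse hepatocytes that was grown with serum, insulin-transferrin-selenium supplement and 0.1 μM dexamethasone, a synthetic glucocorticoid. There were 9 libraries in 3 groups of 3, labelled control, shRNA 1 and shRNA 2, the last 2 with hairpins against *Srrm2*. The labels do not say what the control cells received, and they give 5 days of lentiviral infection for the shRNA groups. *Srrm2* encodes a scaffold protein of nuclear speckles. The labels give no step to synchronise the cells and no time of day at harvest, and they do not say whether the replicates were separate cultures.

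In mammalian cells, ARNTL (also called BMAL1) and CLOCK bind E-box DNA as a pair and switch on the *Per* and *Cry* genes, whose proteins return to the nucleus and repress that pair. A second loop runs through NR1D1 and NR1D2 (REV-ERB alpha and beta), which repress *Arntl*, and the ROR receptors, which activate it through the same DNA element. DBP is an output factor that binds D-boxes, and in liver the clock drives daily rhythms in bile acid, lipid and drug metabolism.

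Each deposited table pools libraries of the control and of 1 hairpin into 1 mean normalized count per gene. That pooled mean is the quantity described here, as the authors' value, with no SD or n. Which control libraries the shRNA 2 table holds is not fully given by the labels. Because control and knockdown libraries are averaged together, the means do not show the level in control cells or the effect of knockdown by itself, and no test of either was made. The sum of the means was 6144608 in the shRNA 1 table and 6393456 in the shRNA 2 table. *Srrm2* itself had means of 3428 and 3759, which do not check its knockdown, since controls are included. As the cells were said to be hepatocytes, markers were looked up. All 10 hepatocyte markers were listed, from 10.8 for *Afp* to 20192 for *Apob* in the shRNA 1 table. Of 4 biliary or progenitor markers 3 were listed, with *Krt19* at 2851, *Krt7* at 1351 and *Sox9* at 670, and *Epcam* was not. None of 3 endothelial markers was listed. The rule that decided which genes are listed is not known here, so here and below, not listed does not mean not expressed. Of 4 leukocyte markers, 3 were listed at 5.30 to 26.2, and of 4 stellate or fibroblast markers, 2 were listed at 3.85 and 8.03, also in the shRNA 1 table. The part of the biliary markers in the clock gene levels was not tested, and in RNA from whole cultures, fewer cells of a type and less RNA per cell cannot be told apart.

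Known DNA motifs, listed below, were searched in RefSeq promoter windows (GRCm38.p6) that run from 250 bases before to 50 bases after each annotated start. Such windows were given for 9 of the 10 clock genes, all but *Per2*. The motifs, on both strands, were the E-box CACGTG, the E-prime box CACGTT, the D-box TTATGTAA, the ROR element core AGGTCA and the cAMP element TGACGTCA. The following stretches hold the matches, in capitals, upstream of a RefSeq start of 6 clock genes. Whether a match goes with the level of a gene was not tested. *Clock* also had a match upstream of a start, given below, but its stretch is not printed here. *Ciart*, an E-box-driven repressor of the clock from the wider pathway, is added because its ratio between the tables, given further on, was the highest of the genes looked at, so it was chosen after its values were seen. Its means lie near or below 10. Each stretch had 1 exact match in NCBIM37, the assembly of mm9, and is written 5′ to 3′ on the gene's strand with 20 bases on either side of the matches.

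Per1 (chr11:68912265-68912339, + strand, mm9): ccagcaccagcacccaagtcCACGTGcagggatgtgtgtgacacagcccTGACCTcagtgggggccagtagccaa
Per3 (chr4:150418905-150418999, - strand, mm9): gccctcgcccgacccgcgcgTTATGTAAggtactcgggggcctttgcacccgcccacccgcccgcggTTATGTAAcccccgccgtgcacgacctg
Cry1 (chr10:84647834-84647898, - strand, mm9): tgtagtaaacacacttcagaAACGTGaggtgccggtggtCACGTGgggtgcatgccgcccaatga
Cry2 (chr2:92274367-92274412, - strand, mm9): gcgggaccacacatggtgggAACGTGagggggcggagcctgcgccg
Nr1d1 (chr11:98636694-98636739, - strand, mm9): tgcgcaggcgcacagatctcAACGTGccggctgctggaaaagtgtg
Nr1d2 (chr14:19071672-19071717, - strand, mm9): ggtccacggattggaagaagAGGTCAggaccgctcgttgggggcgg
Ciart (chr3:95686170-95686287, - strand, mm9): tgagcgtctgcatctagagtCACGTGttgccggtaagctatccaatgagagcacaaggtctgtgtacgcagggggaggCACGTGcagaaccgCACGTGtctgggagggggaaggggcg

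Counted back from the RefSeq start, the E-box of *Cry1* began 60 bases upstream. That of *Per1* began 166 bases before 1 of its 2 starts, which lies inside the gene as GENCODE M1 annotates it, and the window of the other start held none of the motifs. *Cry1* also held an E-prime box at 79 bases, as *Cry2* did at 166 and *Nr1d1* at 28, each read on the opposite strand. *Per3* held 2 D-boxes, at 205 and 158 bases. The E-boxes of *Ciart* began at 116, 58 and 44 bases. Of the 16 pathway genes with a window, 4 held an E-box, the others being *Bhlhe41* at 153 bases, *Tef* at 127 and 138 bases before its 2 starts and *Cipc* at 17 bases before 1 of its 2 starts. A ROR core was found for 4 clock genes, at 77 bases in *Nr1d2*, at 137 before the same *Per1* start, at 119 before 1 of 3 *Clock* starts and within the transcribed part of 1 of 2 *Arntl* windows. No clock gene window held the cAMP element, and the window of *Dbp* held none of the 5 motifs, which says only that these letters are not in that window. Of all 32851 promoter windows, 7.15% held the E-box, 4.68% the E-prime box, 0.94% the D-box, 16.26% the ROR core and 1.79% the cAMP element. Those shares are per window, while the counts above are of genes with a match in any of their windows. The 2 are therefore unlike, and no enrichment is read from them. All hits are matches of letters and do not show binding in AML12 cells.

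**Figure D1:**
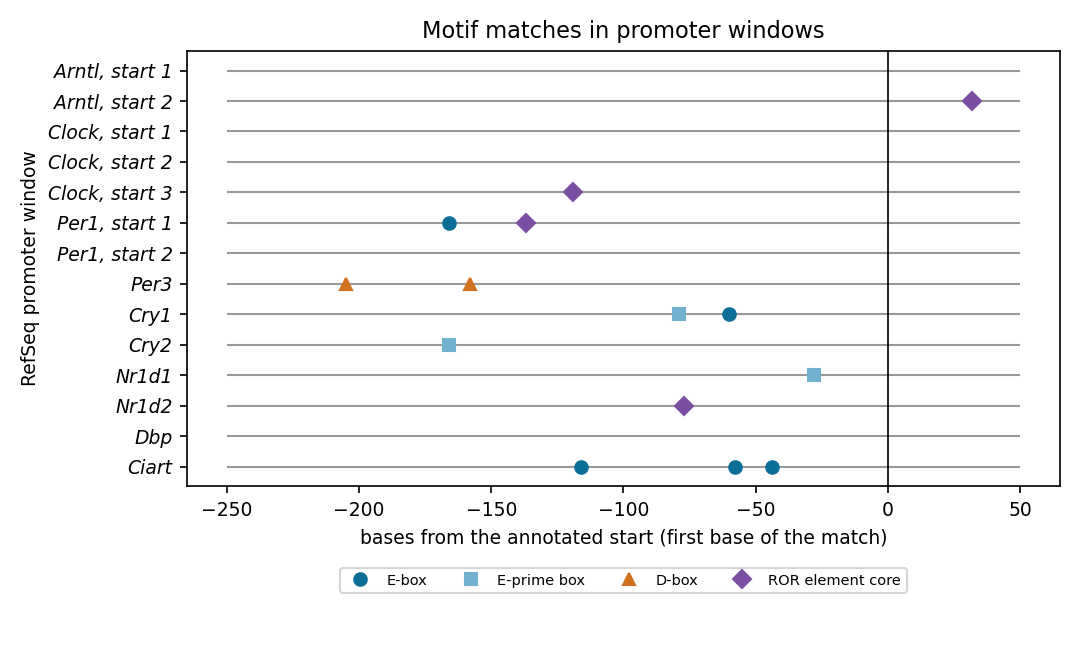
Motif matches in the RefSeq promoter windows of 9 clock genes and *Ciart*, 1 line per annotated start, with the distance of the first base of each match from the start in bases on the horizontal axis. *Per1*, *Cry1* and *Ciart* are the genes drawn that hold E-boxes, and *Dbp* has an empty line.

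To compare genes, each mean was divided by the length of the gene's merged exons in kilobases. On that scale the clock genes spanned 4.63 (*Dbp*) to 109 (*Clock*) in the shRNA 1 table, with a median of 34.9, where all genes listed in both tables had quartiles of 12.9 and 108 and a median of 44.2. One clock gene lay above the upper quartile, 2 lay below the lower quartile and 4 lay above the median. The order from high to low was *Clock*, *Per1*, *Per2*, *Arntl*, *Cry2*, *Cry1*, *Nr1d2*, *Nr1d1*, *Per3* and *Dbp*. Without values per library the spread is not known. The pairs *Arntl* and *Cry2*, *Cry1* and *Nr1d2*, and *Per3* and *Dbp* changed places in the shRNA 2 table, so their order is not resolved.

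**Figure D2:**
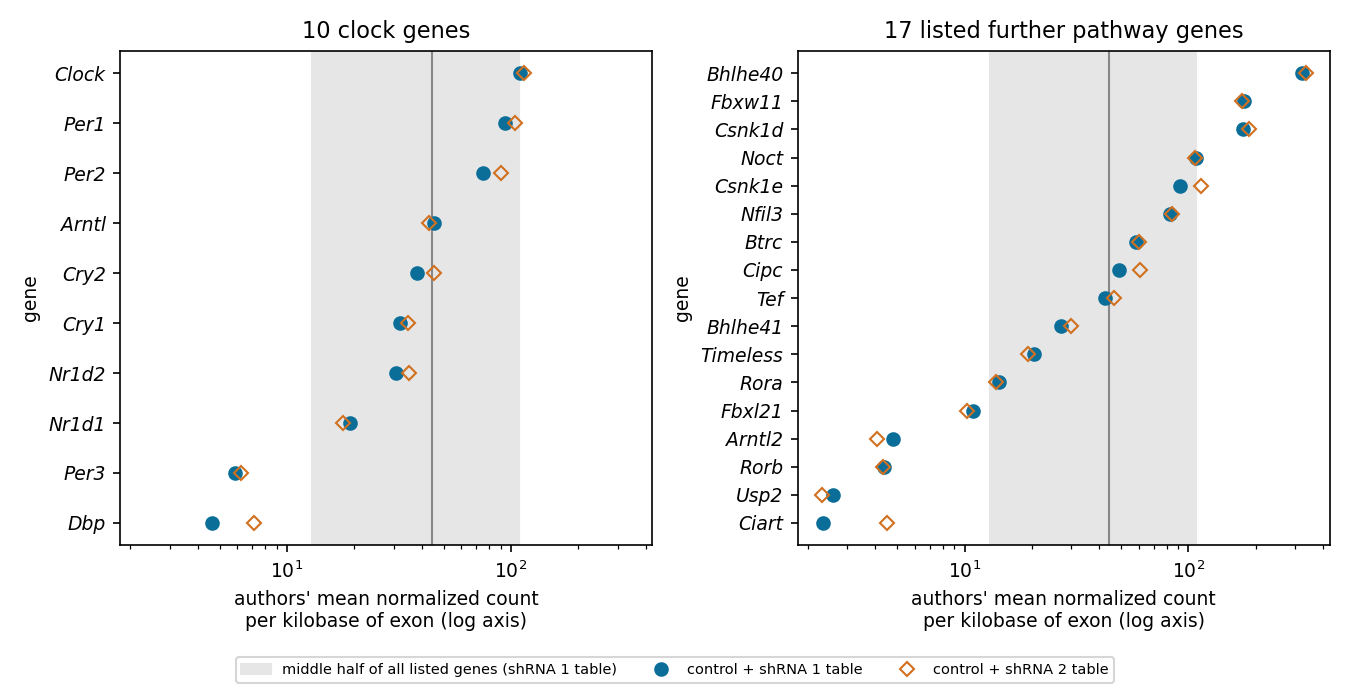
Authors' mean normalized count per kilobase of exon (log axis) for the 10 clock genes and the 17 listed genes of the wider pathway, with circles for the table of control and shRNA 1 and diamonds for the table of control and shRNA 2. Grey marks the quartile range of all genes listed in both tables (12.9 to 108) and the line their median (44.2), and *Per3* and *Dbp* fall to the left of the grey area.

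The activating pair was unequal in RNA. *Clock* (ENSMUSG00000029238.7, minus strand of chromosome 5 of mm9, 76639992 to 76733817) had mean normalized counts of 967 and 1008 in the shRNA 1 and shRNA 2 tables. *Arntl* (ENSMUSG00000055116.6, plus strand of chromosome 7, 120350979 to 120457636) had 132 and 126. Per kilobase, *Clock* was 2.42-fold and 2.64-fold above *Arntl*. *Clock* stood at percentile 75.3 of all listed genes in both tables, and *Arntl* at 50.6 and 48.3. Of their paralogs, *Npas2*, which can stand in for *Clock*, was listed in neither table, and *Arntl2* had means of 14.6 and 12.3, at percentiles 14.1 and 11.9. Per kilobase, *Arntl2* was at 4.80 in the shRNA 1 table, where *Arntl* was at 45.2.

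Among the repressors, *Per1* and *Per2* were far above *Per3*. *Per1* (ENSMUSG00000020893.11, plus strand of chromosome 11, 68908719 to 68923462) had means of 532 and 587, and *Per2* (ENSMUSG00000055866.7, minus strand of chromosome 1, 93312561 to 93355907) had 437 and 530. *Per3* (ENSMUSG00000028957.6, minus strand of chromosome 4, 150377761 to 150418774) had 56.6 and 60.1. Per kilobase *Per1* was 16.1-fold and 16.7-fold, and *Per2* 12.7-fold and 14.5-fold, above *Per3*. With the longest coding transcript as the length, these folds in the shRNA 1 table were 12.1 and 7.95, since *Per3* has 9608 bases of merged exons but 5999 in its longest coding transcript. *Per3* was the 1 clock gene of the 9 with a promoter window that held D-boxes, and a link between these and its level was not tested.

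The cryptochromes lay closer together. *Cry2* (ENSMUSG00000068742.5, minus strand of chromosome 2, 92243803 to 92274200) had means of 240 and 287, and *Cry1* (ENSMUSG00000020038.9, minus strand of chromosome 10, 84594447 to 84647799) had 96.2 and 104. Per kilobase of exon, *Cry2* was 1.19-fold and 1.32-fold above *Cry1*, and 1.89-fold in the shRNA 1 table by the longest coding transcript. Both genes lay below the median of all listed genes in the shRNA 1 table, with *Cry2* at percentile 46.1 and *Cry1* at 42.2. Exons of *Cry2* share 295 bases, or 4.7%, with a lincRNA on the other strand, *D930015M05Rik*, which was listed in neither table.

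Enzymes that act on PER and CRY proteins set how long they last. The casein kinases that phosphorylate PER, *Csnk1d* and *Csnk1e*, had means of 1028 and 590 in the shRNA 1 table and 1093 and 731 in the shRNA 2 table. *Fbxl21*, an F-box protein that binds CRY, had 53.1 and 50.1, and its level in the shRNA 1 table was 10.9 per kilobase of exon but 27.0 by its longest coding transcript. *Fbxw11* and *Btrc*, which mark PER, had 767 and 369 in the shRNA 1 table and 748 and 380 in the shRNA 2 table. Per kilobase, *Csnk1d* and *Fbxw11* stood at percentiles 85.3 and 85.5 in the shRNA 1 table, above all 10 clock genes.

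In the second loop, *Nr1d2* (ENSMUSG00000021775.9, minus strand of chromosome 14, 19036568 to 19071641) had means of 154 and 176, and *Nr1d1* (ENSMUSG00000020889.10, minus strand of chromosome 11, 98629246 to 98636647) had 59.7 and 55.8. Per kilobase, *Nr1d2* was 1.61-fold and 1.97-fold above *Nr1d1*. *Nr1d1* shares 263 exon bases, 8.4% of its exons, with *Thra* on the other strand, a thyroid hormone receptor gene with means of 187 and 180. Of the opposing receptors, *Rora* had means of 188 and 181 and *Rorb* 48.2 and 48.0, which per kilobase put *Rora* at 14.3 and *Rorb* at 4.35 in the shRNA 1 table.

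*Dbp* (ENSMUSG00000059824.4, plus strand of chromosome 7, 52960458 to 52965525) had means of 13.6 in the shRNA 1 table and 21.1 in the shRNA 2 table. Per kilobase it stood at percentiles 13.8 and 17.4, last of the 10 genes in the shRNA 1 table and just above *Per3* in the shRNA 2 table. Of its exon bases, 491 of 2945 (16.7%) are shared with *Sphk2*, a sphingosine kinase gene on the other strand with means of 201 and 230. The libraries were described as strand-specific, but the strand setting of the count is not given in the sources used here, so reads of the 2 genes in the shared part may have been lost or assigned to either. Of the related D-box factors, *Tef* was 9.14-fold and 6.53-fold above *Dbp* per kilobase, with means of 333 and 367, and *Hlf* was listed in neither table. *Nfil3*, which represses through the same D-boxes, had means of 167 and 171.

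The remaining pathway genes covered a wide range. *Bhlhe40*, an E-box repressor, had means of 1050 and 1091 and stood at percentile 93.3 per kilobase of exon in both tables, and *Bhlhe41* had 169 and 186. *Noct* (named *Ccrn4l* in the annotation), a clock-controlled phosphatase, had 1154 and 1141. *Cipc* (2310044G17Rik), an inhibitor of CLOCK, had 198 and 245, and *Timeless* 126 and 117. *Usp2*, a deubiquitinase with rhythmic RNA in liver, had 11.4 and 10.1, and *Ciart* (*Gm129*) 5.28 and 10.2. Of 19 pathway genes, 17 were listed in both tables, 16 had means of 10 or more in each and 12 had 100 or more. All 10 clock genes reached 10 in each table, and 6 reached 100.

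To ask whether the clock genes differed between the tables, the ratio of the mean in the shRNA 2 table to that in the shRNA 1 table was taken. The tables were normalized separately, with a median ratio of 1.05 (0.07 on the log2 scale) over the 11451 genes whose means reached 10 in each table, and each log2 ratio is given relative to that median. The labels of 1 control library name both tables, and those of the other 2 name the shRNA 1 table and tables of further hairpins not analysed here. If the same control libraries are in both, they pull the ratios towards 1, and the size of a ratio also rests on how the tables are scaled. The ratios are a description without a test, because no spread over libraries was used.

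The ratios of the clock genes were spread around that median. Their centred log2 ratios ran from -0.17 (*Nr1d1*) to 0.55 (*Dbp*), with a median of 0.06. Of the 10 genes, 7 were above and 3 below the median of all genes, where 5725 of all 11451 genes were above. Without centring 8 were above 0, where the median of all genes was itself 0.07. Over all 11451 genes the quartiles of the centred ratio were -0.10 and 0.10. For each gene, the middle 95% of the 500 genes nearest in mean served as a yardstick of how far genes of that level lay apart between the tables. That range holds both noise and genes that did differ, and it is not a replicate error. None of the 10 clock genes and none of the 17 listed pathway genes lay outside its range, where 5.2% of all 11451 genes did. A count of 0 among so few genes is near that background and is not a result about the clock genes.

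**Figure D3:**
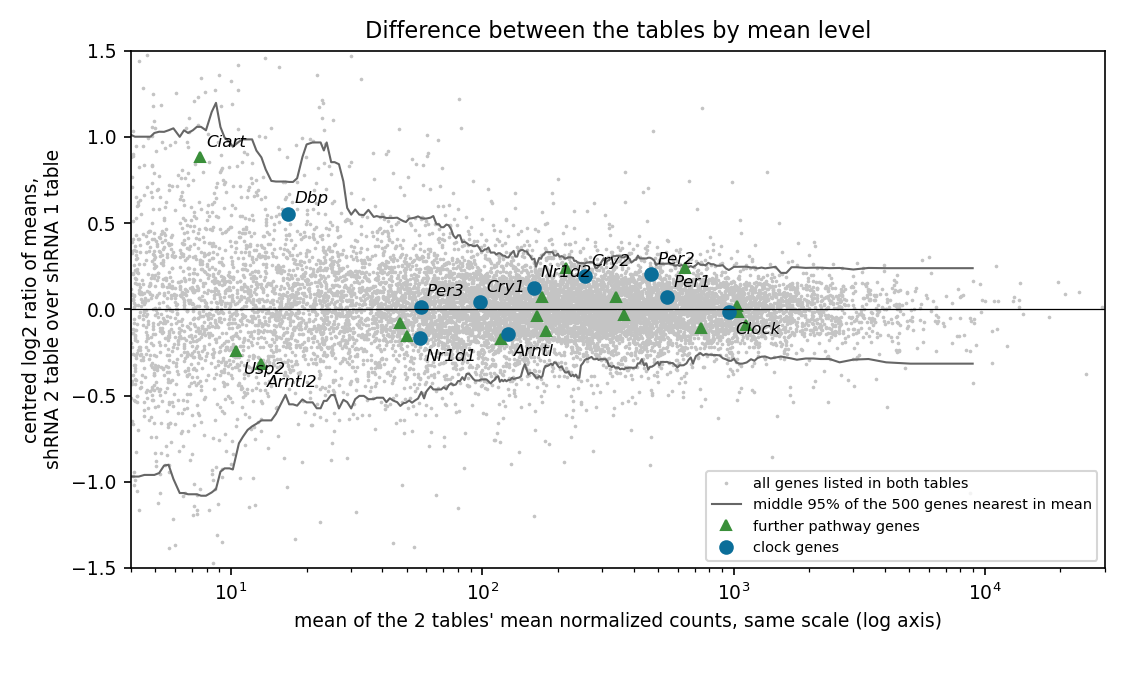
Centred log2 ratio of the mean in the shRNA 2 table over that in the shRNA 1 table (vertical axis) against the mean of both tables (log axis), for all genes listed in both (grey points), the clock genes (circles) and the wider pathway (triangles). The lines bound the middle 95% of the 500 genes nearest in mean, and all circles and triangles lie between them.

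*Dbp* had the largest ratio of the 10. On a common scale its mean was 13.6 in the shRNA 1 table and 20.04 in the shRNA 2 table, 46.9% higher, inside a range of -0.51 to 0.76 on the log2 scale for genes of its level. *Per2* and *Cry2* followed, 15.2% and 14.1% higher in the shRNA 2 table, with centred log2 ratios of 0.20 and 0.19 against upper limits of 0.29 and 0.27 for genes of their level. *Nr1d2* was 9.03% and *Per1* 4.92% higher. These 5 genes, like *Cry1* and *Per3*, had higher means in the shRNA 2 table under each scaling that was tried. The centring used here lowers the ratios more than the other scalings do. Their agreement therefore follows from the centred ratios and is no further support for a direction.

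*Arntl* and *Nr1d1* had lower means in the shRNA 2 table, with centred log2 ratios of -0.14 and -0.17. Without centring these were -0.07 and -0.10, and the other scalings only lower them by a fixed amount. *Cry1*, *Per3* and *Clock* lay nearest to the median of all genes, at 0.04, 0.01 and -0.01. *Clock* was above 0 without centring (0.06) and when scaled to the sums of the means (0.0022), so no direction is given for it. The paralogs *Nr1d1* and *Nr1d2* therefore had ratios of opposite sign, and neither lay outside the range of genes of like level.

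In the wider pathway, 6 of the 17 listed genes had ratios above and 11 below the median of all genes, with a median of -0.04. Without centring 9 were above 0, where the median of all genes was itself 0.07. *Ciart*, at the low means given above, had the highest centred log2 ratio, 0.88, inside a range of -1.08 to 1.06 for genes of its level. *Cipc* and *Csnk1e* followed at 0.24 each, and the upper limit for the level of *Csnk1e* was 0.25. *Arntl2*, with -0.32, and *Usp2*, with -0.24, were the lowest. *Bhlhe40* was within 0.02 of the median of all genes. *Tef* was at 0.07 and *Dbp* at 0.55. Genes near the low mean of *Dbp* spread more widely (SD 0.34, against 0.15 near *Tef*), so no difference between the 2 is read.

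**Figure D4:**
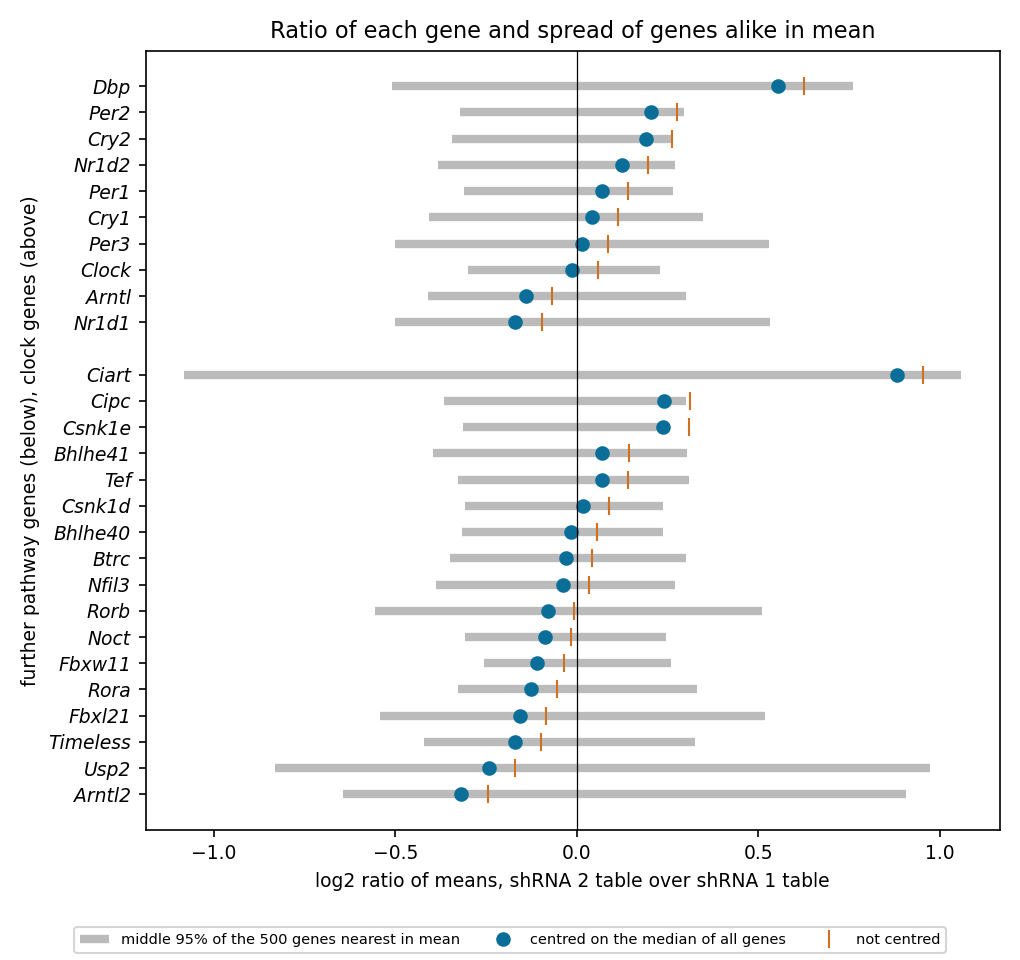
Log2 ratio of the mean in the shRNA 2 table over that in the shRNA 1 table for each clock gene (upper rows) and listed pathway gene (lower rows), centred on the median of all genes (circles) or not centred (ticks). Grey bars give the middle 95% of the 500 genes nearest in mean, and every circle lies on its bar, with *Dbp* and *Ciart* farthest to the right.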

How the data were processed

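RNA-seq was done in 9 libraries of AML12 cells. According to the paper's methods and the submitters' processing notes, the authors trimmed reads, mapped them to mm9 with TopHat2, kept uniquely mapped concordant pairs, used HTSeq to count reads per GENCODE M1 gene, and applied DESeq2 1.8.2. Each of the 2 deposited tables gives for every listed gene the authors' mean normalized count (a signal averaged over control and hairpin libraries), a log2 fold change against control, its standard error, a test statistic, a p-value and an adjusted p-value. The last 5 columns are the authors' own comparison and were not used. No column held values of 1 library, so depth per library and replicate error are unknown, and no test was run.

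Means were divided by merged GENCODE M1 exon lengths (NCBIM37, the assembly of mm9). Log2 ratios of the shRNA 2 over the shRNA 1 table were centred on the median of genes that reached a mean of 10 in each table and set beside the middle 95% of the 500 genes nearest in mean. The procedure was tested on simulated data with 200 changed genes, in which both tables shared the same controls. Whether the deposited tables do so is not fully given by the labels, so the simulation may differ from these data. Symbols came from GENCODE M1, and *Ciart*, *Noct* and *Cipc* were matched through RefSeq synonyms. The 10 members, the 19 pathway genes and the markers were chosen with earlier results of these data known. Python 3.11.15, numpy 2.4.6, pandas 2.3.3 and matplotlib 3.10.9 were used. Alternatives were other lengths, scalings, reference genes and minimum means. Protein sequences were not used here, and 2 further genes of the pathway list are not reported here.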

Additional observations from a re-analysis of the deposited data

How the results depend on the processing

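The pooled means allow no replicate to be left out, and no depth per library or spread between libraries limits a statement in numbers. No paired analysis was possible because the tables give 1 mean per gene over several libraries. Raising the minimum mean from 10 to 100 in both tables left 6 of the 10 clock genes and 12 of the 19 pathway genes, and with no minimum 10 and 17 were listed. The median clock gene level, 34.9 per kilobase, was 39.1 with the longest coding transcript as the length and 37.3 from the shRNA 2 table on the same scale. Of 20 single levels recomputed in these ways, 3 moved by over 1.5 times, all with the longest coding transcript: *Per3* to 9.43, *Cry2* to 60.3 and *Dbp* to 7.63. That length also put *Per1* above *Clock*, *Cry2* above *Arntl* and *Nr1d2* above *Cry1*, and in the wider pathway *Noct* (377) above *Bhlhe40* (337). The number of clock genes above the centre was 7, 8 without centring, 7 when centred on genes with a mean of at least 100 and 8 when scaled to the sums of the means. The 30 recomputed ratios are those of 10 genes under 3 scalings, each of which shifts the log2 ratio of every gene equally. For all 10 genes each shift was less than the SD among the 500 genes nearest in mean. Since the shift is the same for every gene, this is not a check of single genes. Among protein-coding genes alone the median percentile of the clock genes was 41.5, against 44.1 among all listed genes.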
